A study of Mus musculus with 6 samples.

Results

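The 10 genes described here encode transcription factors that mark or maintain astrocyte identity: Sox9, Sox2, Nfia, Nfib, Nfix, Rfx4, Hes5, Id3, Lhx2 and Zbtb20. They were taken by name from the 22086 genes of the series, and each was read from the Ensembl transcript on which most reads were counted. All 10 were among the 13545 genes that passed the filter on low counts.

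Polysomal mRNAs were recovered from whole hippocampi of 6 weeks-old mice by translating ribosome affinity purification (TRAP), in which a tagged ribosomal protein made in 1 cell type is pulled down with the mRNAs it carries. All mice carried the Aldh1l1:L10a-eGFP transgene, which tags ribosomal protein L10a with eGFP under the astrocyte gene Aldh1l1, together with floxed alleles of connexin 43 (Cx43 fl/fl, gene Gja1). The 3 Cx43FL libraries came from littermates that carried no Cre. The 3 libraries labelled Cx43KO came from mice that also carried hGFAP-Cre, in which the human GFAP promoter drives Cre recombinase. This promoter is known to act in radial glial progenitors as well as in astrocytes, so neurons born from these progenitors can carry the deletion too. The number of mice behind a library and whether they were pooled are not given in the sources used here, so the p-values measure the spread between these libraries, which may be partly technical. The comparison asks whether the levels of these factors on astrocyte ribosomes differed when astrocytes lacked Cx43.

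In the developing forebrain, Notch and bone morphogenetic protein (BMP) signals switch neural progenitors toward the glial fate. Notch activates HES repressors, BMP signals activate ID proteins, and both restrain the proneural factors. Sox9 and the nuclear factor I (NFI) proteins start the astrocyte program, and several of these factors stay on in mature astrocytes, where they hold the cell type's gene expression in place.

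Library totals ranged from 33423491 to 77030398 counts over transcripts, and from 14787303 to 34733473 over the transcripts chosen for genes. Every Cx43KO library was deeper over transcripts (36869534 to 77030398) than every Cx43FL library (33423491 to 34921942), so depth went with genotype. Gja1, the targeted gene, stood between 82.3 and 98.4 CPM (counts scaled to 1000000 per library with TMM factors) in all 6 libraries (adjusted p = 0.949, edgeR). Its counts are totals over a transcript and do not show which exons were read. They did not show the deletion and did not check the genotype labels, so every direction given here rests on the labels. Cx43KO replicate 1 stood apart from the other libraries. In it the summed level of 11 astrocyte markers was 48.1% of the Cx43FL mean, that of 12 neuron markers 301% and that of 8 oligodendrocyte markers 359%. In Cx43KO replicates 2 and 3 the astrocyte markers stood at 91.7% and 128%, the neuron markers at 117% and 173%, and the oligodendrocyte markers at 135% and 83.9%. The largest parts of the astrocyte sum were Glul, Slc1a2 and Aldoc, named after their values were seen. In Cx43KO replicate 3 Slc1a2 was at 14574 CPM against a Cx43FL mean of 7619. Aldoc was at 7744 against 6728 there, and Glul at 7418 against 9037. The summed endothelial markers stayed between 0.241 and 12.6 CPM. Summed neuron markers were higher in every Cx43KO library, at 3045 to 7829 CPM against 2141 to 2878 in Cx43FL. So were the summed markers of microglia, at 94.2 to 183 CPM against 29.3 to 54.9. The sum for choroid plexus and ependyma was 21758 to 32526 CPM against 480 to 15060. Most of that sum was the transthyretin gene Ttr, named after its values were seen. Of the 6 genes of that list, 3 had every Cx43KO library above every Cx43FL library, as had 8.08% of all genes. The part of these other cell types in the levels of the 10 factors was not tested. In such bulk material, fewer cells of a type and less RNA per cell cannot be told apart.

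The defining markers of astrocytes were abundant in every library, and the 10 factors were among the more abundant genes. Per kilobase of transcript, the Cx43FL levels of the 10 factors lay between the 81.0th and 98.9th percentile of all genes tested, with a median percentile of 92.4. The median percentile was 97.8 for the astrocyte markers, 76.4 for the neuron markers, 70.0 for the oligodendrocyte markers and 14.3 for the microglia markers. For transcription factor genes it was 40.6 for 13 of hippocampal neurons, 56.5 for 7 of the oligodendrocyte lineage and 18.3 for 5 of microglia. Spi1, a microglial factor, did not pass the filter on low counts, nor did the endothelial factors Sox17, Sox18, Erg and Tal1. The 5 microglial factors that passed lay between the 1.99th and 62.4th percentile. The endothelial factors Sox7 and Fli1 also passed, at the 49.0th and 9.30th percentile.

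Per length, the highest Cx43FL means were those of Id3 (356 ± 34.5 CPM per kb, SD, n = 3) and Lhx2 (353 ± 58.0), whose libraries overlapped. Sox2 (203 ± 21.6) and Sox9 (166 ± 51.0) followed, and overlapped each other as well. Nfia (85.3 ± 17.2), Hes5 (76.7 ± 11.4) and Rfx4 (67.2 ± 23.0) formed the next group, again with overlapping libraries. Nfix (49.7 ± 16.4) overlapped Hes5 and Rfx4 above it, and Zbtb20 (40.6 ± 1.92) and Nfib under it. Nfib had the lowest mean, 31.6 ± 1.84, with its 3 Cx43FL libraries under the 3 of Zbtb20. The chosen Zbtb20 transcript is 26901 bases long and 90.3% of it is 1 exon, so its value per kb is mostly that of this exon.

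**Figure D1:**
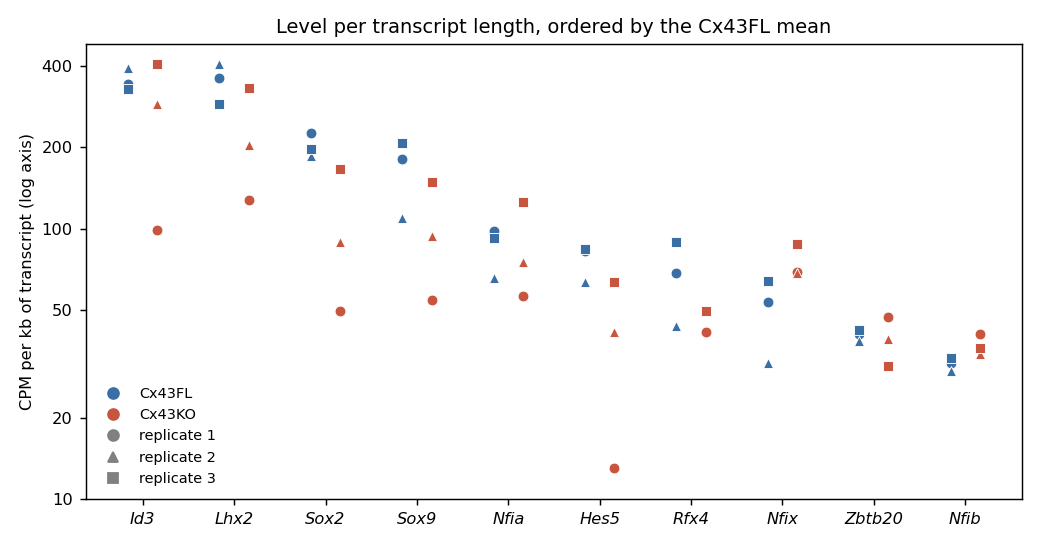
Level of the 10 genes in CPM per kb of the chosen transcript (log axis), with 1 point per library, blue for Cx43FL and red for Cx43KO, and the replicate number given by the symbol. Genes are ordered by the Cx43FL mean, from Id3 at 356 to Nfib at 31.6, and the lowest point is Hes5 in Cx43KO replicate 1 at 13.0.

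None of the 10 genes passed the test between genotypes (edgeR quasi-likelihood test, Benjamini-Hochberg adjusted p below 0.05, with at least 50 normalized counts on average in the higher genotype). In the same test 1 gene of 13545 was called higher, which is 0.00738% of those tested, and 0 were called lower, which is 0%. The 1 gene, named after its value was seen, was Prm1, which encodes a protamine of sperm. Without adjustment, p was below 0.05 for 767 genes with higher levels in Cx43KO (5.66%) and for 362 with lower levels (2.67%), and Sox2 was the 1 factor among them. DESeq2 with its prior called 113 genes higher (0.827%) and 17 lower (0.124%), and none of the 10 factors in either direction.

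The 10 factors did not share 1 pattern. Fitted log2 fold changes were negative for 7 (Sox9, Sox2, Rfx4, Hes5, Id3, Lhx2 and Zbtb20) and positive for 3 (Nfia, Nfib and Nfix), with a median of -0.47, against 0.07 over all genes tested. All 3 Cx43KO libraries lay under all 3 Cx43FL libraries for Sox2 alone, and above them for Nfib and Nfix. Of all genes tested, 7.45% had every Cx43KO library below and 8.08% above, so neither count is a result about the 10 factors. In Cx43KO replicate 1, 7 of the 10 factors had their lowest level of all 6 libraries and 2 their highest, while 29.9% of all tested genes were lowest and 30.3% highest there.

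**Figure D2:**
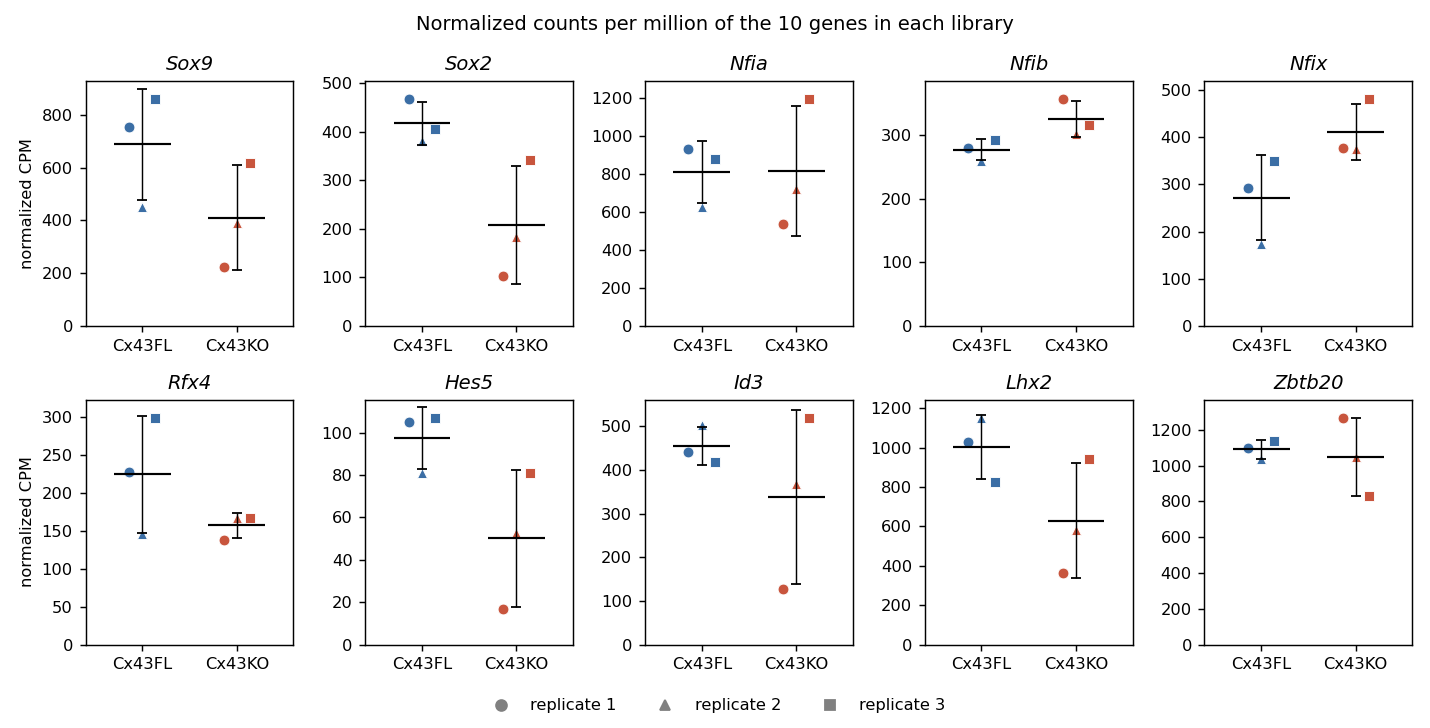
Normalized CPM of each factor (linear axes from 0), with 1 symbol per library and replicate, black lines for group means and bars for the SD of 3 libraries. The Cx43KO libraries spread more widely than the Cx43FL libraries for Sox2, Hes5, Id3 and Lhx2, and Cx43KO replicate 1 is the lowest point of these 4 genes.

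Sox9 and Sox2 belong to the SOX family of HMG-box proteins. Sox9 starts gliogenesis and remains in the nuclei of nearly all adult astrocytes, and Sox2 maintains neural progenitors and is kept in astrocytes. Sox9 (ENSMUSG00000000567, transcript Sox9-201, GRCm38 chr11:112782224-112787760, plus strand) was at 753, 452 and 859 CPM in Cx43FL replicates 1 to 3 and at 225, 390 and 618 in Cx43KO replicates 1 to 3. The genotypes overlapped because Cx43FL replicate 2 lay under Cx43KO replicate 3. The log2 fold change was -0.74 (SE 0.39, 95% interval -1.60 to 0.12) with an adjusted p of 0.609 (edgeR), and -0.45 without Cx43KO replicate 1.

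Sox2 (ENSMUSG00000074637, Sox2-201, a single exon at GRCm38 chr3:34650405-34652461, plus strand) was at 467, 381 and 406 CPM in Cx43FL and at 102, 183 and 341 in Cx43KO. Every Cx43KO library was under every Cx43FL library, by a wide margin in replicate 1 (24.5% of the Cx43FL mean) and a narrow one in replicate 3 (81.6%). Its log2 fold change was -1.0 (SE 0.40, 95% interval -1.87 to -0.13). The unadjusted p was 0.0281 and the adjusted p 0.556 in edgeR, and the exact 2-sided permutation test gave 0.1, the smallest p that 3 against 3 libraries allow. Without Cx43KO replicate 1 the log2 fold change was -0.68 (adjusted p = 0.549, edgeR).

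Sox1, like Sox2 a member of the SoxB1 group, was at 260, 187 and 183 CPM in Cx43FL and 42.3, 115 and 151 in Cx43KO, with no overlap and a log2 fold change of -1.03 (adjusted p = 0.563, edgeR). Sox1 was picked for mention after its values were seen. Sox21 and Sox8 overlapped between genotypes, and Sox3 did not pass the filter on low counts.

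Promoter sequences of 3 of the factors are shown because Sox2 and Hes5 had the largest negative log2 fold changes and Nfix the largest positive one. They are RefSeq sequences on GRCm38.p6, 250 bases before to 50 after the annotated start, read 5′ to 3′ on the strand of the gene. The NFI half-site TTGGC and the core TGGGAA bound by RBPJ, the DNA-binding partner of Notch, were searched on both strands and are in capitals; they do not overlap in these sequences.
Sox2 (chr3:34649745-34650044, plus strand): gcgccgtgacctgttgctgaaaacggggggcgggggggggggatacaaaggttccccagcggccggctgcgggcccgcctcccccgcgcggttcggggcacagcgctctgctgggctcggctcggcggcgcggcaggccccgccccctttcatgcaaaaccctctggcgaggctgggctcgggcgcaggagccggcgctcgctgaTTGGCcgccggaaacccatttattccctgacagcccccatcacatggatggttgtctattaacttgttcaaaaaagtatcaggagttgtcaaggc
Hes5 (chr4:154960673-154960972, plus strand): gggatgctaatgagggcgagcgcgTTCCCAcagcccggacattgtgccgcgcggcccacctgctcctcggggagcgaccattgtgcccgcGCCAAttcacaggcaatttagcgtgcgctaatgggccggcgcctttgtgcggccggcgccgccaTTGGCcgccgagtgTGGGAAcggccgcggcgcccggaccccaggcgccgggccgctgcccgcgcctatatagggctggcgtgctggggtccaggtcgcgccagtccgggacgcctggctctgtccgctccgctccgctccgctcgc
Nfix (chr8:84773361-84773660, minus strand): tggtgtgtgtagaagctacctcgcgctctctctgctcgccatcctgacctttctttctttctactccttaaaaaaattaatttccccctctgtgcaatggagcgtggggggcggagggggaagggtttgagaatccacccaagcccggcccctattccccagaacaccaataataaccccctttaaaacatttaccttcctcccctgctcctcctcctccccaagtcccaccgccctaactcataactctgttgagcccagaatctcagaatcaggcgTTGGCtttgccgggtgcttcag

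Of the 10 factors, 8 had an entry in the promoter table, and for 5 of them (Sox2, Nfix, Hes5, Id3 and Lhx2) it lay within 1000 bases of the start of the counted transcript. Sox9 and Nfib had no entry. The Hes5 promoter holds 2 RBPJ cores, whose first bases lie 226 and 82 bases before the start, and Lhx2 holds 1. That core occurs in 25.6% of the 32851 promoters of this length. The NFI half-site occurs in 46.7% of all promoters and in 4 of these 5 (Sox2, Nfix, Hes5 and Id3), while the full palindrome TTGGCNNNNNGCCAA was in none of the 5. The GC element GGCGCC bound by SMAD proteins, some of whose matches overlap one another, was found in Hes5 but not in Id3, and in 11.9% of all promoters. The 5 promoters were 53.0% to 72.7% G and C, against a median of 52.7% over all promoters. These matches describe letters and show no binding.

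The 3 NFI genes encode related DNA-binding proteins that act with Sox9 in astrocyte differentiation. Nfia (ENSMUSG00000028565, Nfia-202, GRCm38 chr4:97777608-98118871, plus strand) was at 932, 626 and 879 CPM in Cx43FL and at 536, 719 and 1194 in Cx43KO. Cx43KO held both the lowest and the highest library, and the group means were 812 ± 164 and 816 ± 340 (SD, n = 3 each). Its log2 fold change was 0.01 (95% interval -0.74 to 0.75), and its sign turned with the choice of scaling.

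Nfib (ENSMUSG00000008575, Nfib-201, GRCm38 chr4:82290173-82505308, minus strand) was the steadiest of the 3, at 279, 260 and 292 CPM in Cx43FL and 357, 302 and 317 in Cx43KO. Its Cx43KO libraries all lay above the Cx43FL libraries, with a log2 fold change of 0.23 (95% interval -0.33 to 0.79, adjusted p = 0.795, edgeR). Scaling by astrocyte marker counts ended this separation.

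Nfix (ENSMUSG00000001911, Nfix-204, GRCm38 chr8:84704712-84773396, minus strand) was at 292, 174 and 350 CPM in Cx43FL and 377, 375 and 481 in Cx43KO. The highest Cx43FL library came close to the lowest Cx43KO libraries without reaching them. The log2 fold change was 0.59 (SE 0.31, 95% interval -0.09 to 1.28) with an adjusted p of 0.609 (edgeR) and an exact permutation p of 0.1, and it was 0.65 without Cx43KO replicate 1. Nfic, the remaining NFI gene, was also above in every Cx43KO library, at 90.4, 69.2 and 102 CPM in Cx43FL and 130, 120 and 145 in Cx43KO (log2 fold change 0.59, adjusted p = 0.603, edgeR; mentioned after its values were seen).

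Rfx4 encodes a winged-helix factor of radial glia and astrocytes with a role in cilium genes. Rfx4 (ENSMUSG00000020037, GRCm38 chr10:84834746-84906534, plus strand) was at 228, 145 and 298 CPM in Cx43FL and 138, 167 and 166 in Cx43KO. The Cx43KO libraries lay close together, and the Cx43FL libraries spread on both sides of their upper values. For Rfx4 the log2 fold change was -0.51 (95% interval -1.21 to 0.18, adjusted p = 0.642, edgeR). Of its relatives, Rfx5 alone had all Cx43KO libraries above, with a log2 fold change of 0.26 (adjusted p = 0.865, edgeR; mentioned after its values were seen), and Rfx1, Rfx2, Rfx3 and Rfx7 overlapped.

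Hes5 is the repressor through which Notch keeps radial glia undifferentiated, and its promoter with the pair of RBPJ cores is shown above. Hes5 (ENSMUSG00000048001, Hes5-201, GRCm38 chr4:154960923-154962371, plus strand) was at 105, 80.9 and 107 CPM in Cx43FL and 16.6, 52.8 and 81.0 in Cx43KO. Cx43KO replicate 3 exceeded Cx43FL replicate 2 by the last digit alone, and replicate 1 held 17.0% of the Cx43FL mean, the lowest share of the 10 factors. For Hes5 it came to a log2 fold change of -0.96 (SE 0.49, 95% interval -2.03 to 0.11, adjusted p = 0.609, edgeR), and -0.55 without Cx43KO replicate 1. On 34.0% of the Hes5 transcript the annotation holds Gm20421 on the opposite strand, and since the counting is not stated to use strand, reads of both cannot be told apart there.

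Of the 18 family relatives tested 0 passed in edgeR, and 3 had an unadjusted p below 0.05, all with lower levels in Cx43KO, as had 2.67% of all genes: Sox1 and the Notch effectors Hes1 and Hey1. Hes1 had the largest negative log2 fold change of them, -1.87 (SE 0.56, unadjusted p = 0.0063, adjusted p = 0.492, edgeR). It was at 93.6, 104 and 59.4 CPM in Cx43FL and 6.46, 27.5 and 36.2 in Cx43KO. Hes1, Hey2 and Sox1 were lower in every Cx43KO library, as were 7.45% of all genes, and Hey1 overlapped by 1 library pair, with log2 fold changes of -0.99 for Hey2 and -0.73 for Hey1. Hey1 and Hey2 were named after their values were seen.

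For the Notch pathway upstream of these effectors, of 24 ligands, receptors, processing enzymes, modifiers and nuclear partners, 22 were tested, 0 passed in either direction, 2 had an unadjusted p below 0.05 with higher levels in Cx43KO (Ncstn and Maml3), as had 5.66% of all genes, and the median log2 fold change was 0.54, with 16 positive and 6 negative. Ncstn, which encodes nicastrin, a protein needed for the cleavage of Notch receptors, was at 22.5, 15.2 and 17.5 CPM in Cx43FL and 50.5, 28.2 and 39.3 in Cx43KO (log2 fold change 1.10, adjusted p = 0.556, edgeR). Notch1 was at 18.6, 16.1 and 26.1 CPM in Cx43FL and 32.5, 28.5 and 37.8 in Cx43KO, and neither gene overlapped between genotypes, with every Cx43KO library above, as for 8.08% of all genes. Rbpj overlapped between genotypes, with a log2 fold change of -0.23. The extremes of the list were Psen2 at -0.74 and Maml3, a nuclear coactivator read at under 20 CPM, at 2.72 (adjusted p = 0.556, edgeR). Ncstn, Notch1 and Rbpj were named after their values were seen.

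Id3 encodes a helix-loop-helix protein without a DNA-binding region, which captures proneural partners and is induced by BMP. Id3 (ENSMUSG00000007872, Id3-201, GRCm38 chr4:136143497-136145392, plus strand) was at 441, 504 and 419 CPM in Cx43FL and 126, 369 and 520 in Cx43KO. Cx43KO held both the lowest library, replicate 1, and the highest, replicate 3. The log2 fold change of -0.43 (95% interval -1.37 to 0.51) came down to -0.04 without Cx43KO replicate 1. Its relatives Id1, Id2 and Id4 overlapped between genotypes, with log2 fold changes of -0.66, -0.60 and -0.53, and Id1 was lowest in Cx43KO replicate 1 as well, at 12.4 CPM (named after its values were seen).

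Of the 14 BMP pathway genes, all tested, 0 passed in either direction, 1 (Bmpr2) had an unadjusted p below 0.05 with a higher level, as had 5.66% of all genes, and the median log2 fold change was 0.16. The receptor Bmpr2 was above in every Cx43KO library, at 49.3, 61.4 and 59.3 CPM in Cx43FL and 162, 67.4 and 121 in Cx43KO (log2 fold change 1.04, adjusted p = 0.54, edgeR), as was the inhibitory Smad6 at under 6 CPM and as were 8.08% of all genes. Both were named after their values were seen. The extremes were the ligands Bmp2 at -1.16 and Bmp4 at 1.64, both read at low counts.

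Lhx2 and Zbtb20 are factors of hippocampal patterning that stay on in astrocytes. The LIM homeodomain protein Lhx2 favors neuronal over glial fate in hippocampal progenitors. Lhx2 (ENSMUSG00000000247, Lhx2-201, GRCm38 chr2:38350759-38369733, plus strand) was at 1030, 1152 and 826 CPM in Cx43FL and 362, 581 and 942 in Cx43KO. Cx43KO replicate 3 fell within the Cx43FL libraries and the other pair lay under them. Between genotypes the log2 fold change was -0.67 (SE 0.36, 95% interval -1.46 to 0.11, adjusted p = 0.609, edgeR), and -0.40 without Cx43KO replicate 1. Its relative Lhx9 had the largest positive log2 fold change among the family relatives, 2.0 (adjusted p = 0.692, edgeR), at under 10 CPM in every library.

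Zbtb20, a zinc finger repressor of hippocampal CA1 neurons and of astrocytes (ENSMUSG00000022708, Zbtb20-204, GRCm38 chr16:42907652-43642602, plus strand), was at 1098, 1036 and 1139 CPM in Cx43FL and 1268, 1049 and 833 in Cx43KO. Cx43KO held the highest library, replicate 1, and the lowest, replicate 3. Between genotypes the log2 fold change was -0.06 (95% interval -0.65 to 0.54, adjusted p = 0.967, edgeR). The coding transcript Zbtb20-201 of 3086 bases held 9.58%, 10.3% and 11.5% as many counts as the long one in Cx43FL and 9.02%, 17.2% and 16.1% in Cx43KO. Reads shared by transcripts were counted for each, so these shares do not separate the isoforms.

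**Figure D3:**
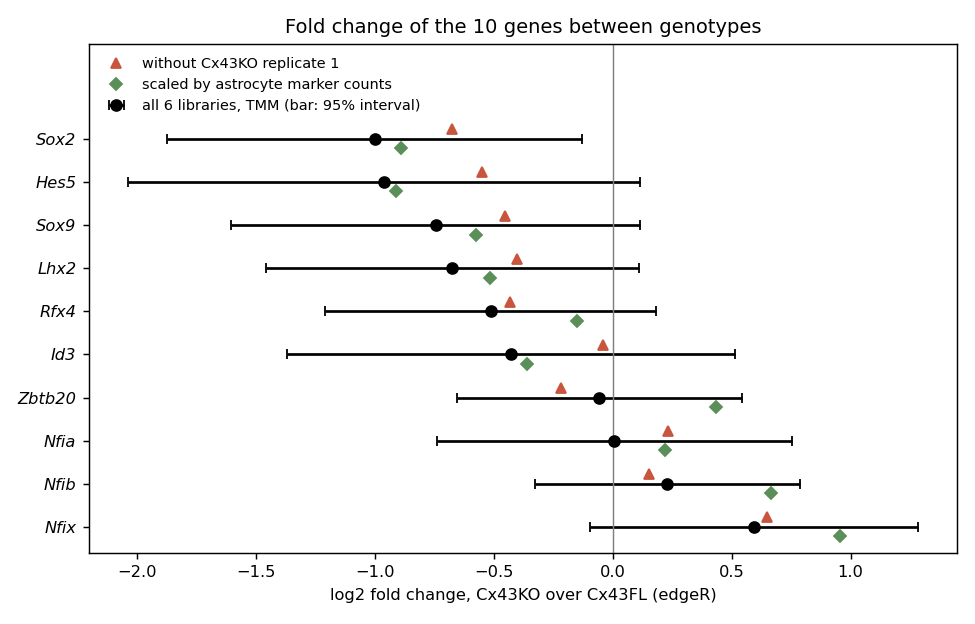
Log2 fold change of Cx43KO over Cx43FL for each factor from edgeR, with black points and 95% intervals for all 6 libraries, red triangles without Cx43KO replicate 1 and green diamonds after scaling by astrocyte marker counts. The interval of Sox2, from -1.87 to -0.13, is the 1 that does not reach 0, and without Cx43KO replicate 1 the estimates of Sox2, Hes5, Sox9, Lhx2, Rfx4 and Id3 lie nearer to 0.

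The levels of the factors in Cx43KO replicate 1 spanned a wide range. As a share of the Cx43FL mean, that library held 17.0% of Hes5, 24.5% of Sox2, 27.8% of Id3, 32.6% of Sox9 and 36.1% of Lhx2. It held 61.6% of Rfx4 and 66.0% of Nfia, and 116%, 129% and 139% of Zbtb20, Nfib and Nfix. In the same library the 13 neuronal transcription factor genes summed to 253% of the Cx43FL mean, and the 18 other astroglial transcription factor genes to 53.5%. In Cx43KO replicates 2 and 3 the neuronal factors summed to 102% and 76.9%, and the other astroglial factors to 82.2% and 106%. There Zbtb20 stood at 96.1% and 76.3%, Nfib at 109% and 114%, and Nfix at 138% and 177%. The part of the cell mix in the levels of the 10 factors was not tested.

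**Figure D4:**
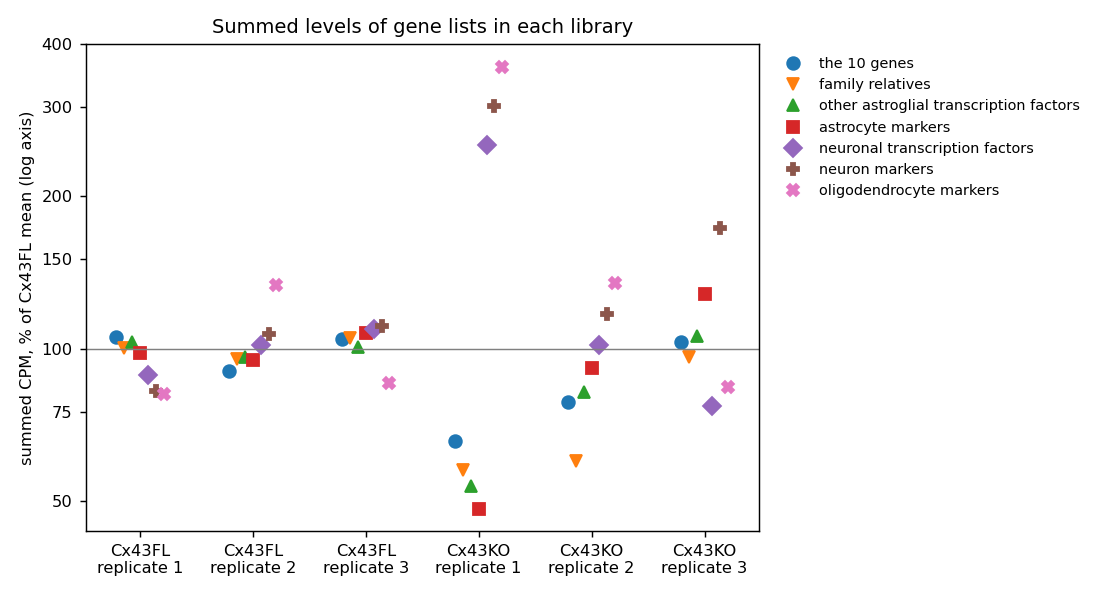
Summed CPM of 7 gene lists in each library, as a percent of the Cx43FL mean of the list (log axis). In Cx43KO replicate 1 the 10 factors stood at 65.7%, their family relatives at 57.6% and the astrocyte markers at 48.1%, while the neuronal transcription factors stood at 253% and the neuron markers at 301%.

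Counts were also set against those of the 11 astrocyte markers of the same library, none of which is 1 of the 10 factors. However, 5 of these markers are described as depending on Sox9 or NFI factors. The markers did not move together, with 4 positive and 7 negative log2 fold changes, from -0.83 to 0.57. Of them, 2 had every Cx43KO library below, as had 7.45% of all genes. Values on this scale therefore rest on the markers listed, and mostly on the abundant Glul, Slc1a2 and Aldoc. Per 1000 astrocyte marker counts, Sox2 had 17.0, 14.3 and 13.4 counts in Cx43FL and 7.55, 7.11 and 9.47 in Cx43KO. Hes5 had 3.81, 3.03 and 3.54 against 1.22, 2.05 and 2.25. Lhx2 had 37.4, 43.2 and 27.3 against 26.8, 22.5 and 26.2. On this scale all Cx43KO libraries of these 3 genes were under the Cx43FL libraries, as for 3.25% of all genes tested, and those of Nfix were above, as for 8.58%. This scaling moved the median log2 fold change of all genes to 0.45, and 0 genes passed the test in edgeR. Relative to that median the log2 fold change was -1.34 for Sox2, -1.36 for Hes5, -0.97 for Lhx2 and 0.50 for Nfix. Sox9 had 27.3, 17.0 and 28.4 counts per 1000 in Cx43FL and 16.6, 15.1 and 17.2 in Cx43KO, so that the spread of its Cx43KO libraries came to 1.06 (SD) around a mean of 16.3. Zbtb20 went the other way, with 93.7 per 1000 in Cx43KO replicate 1 and 23.1 to 40.6 in the other libraries.

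Ratios of 2 factors within a library do not depend on scaling, and 8 were computed. The log2 ratio of Sox9 to Nfia was -0.31, -0.47 and -0.03 in Cx43FL and -1.25, -0.88 and -0.95 in Cx43KO, a difference of -0.76 with no overlap. Without Cx43KO replicate 1 the difference was -0.65. Ratios of Nfia to Nfix (difference -0.70) and of Nfia to Nfic (-0.66) were also lower in every Cx43KO library, and the ratio of Hes5 to Hes1 was higher in each (0.94). For these 4 the exact permutation p was 0.1, the smallest that 3 against 3 libraries allow, and the Benjamini-Hochberg adjusted value over the 8 was 0.2. With the transcripts of a gene added up, the exact permutation p was 0.4 for Nfia to Nfic and 0.2 for Hes5 to Hes1, so these 2 ratios then overlapped between genotypes, and it stayed at 0.1 for Sox9 to Nfia and Nfia to Nfix. Nfia to Nfib, Nfib to Nfix, Sox9 to Sox2 and Id3 to Id1 overlapped between genotypes.

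**Figure D5:**
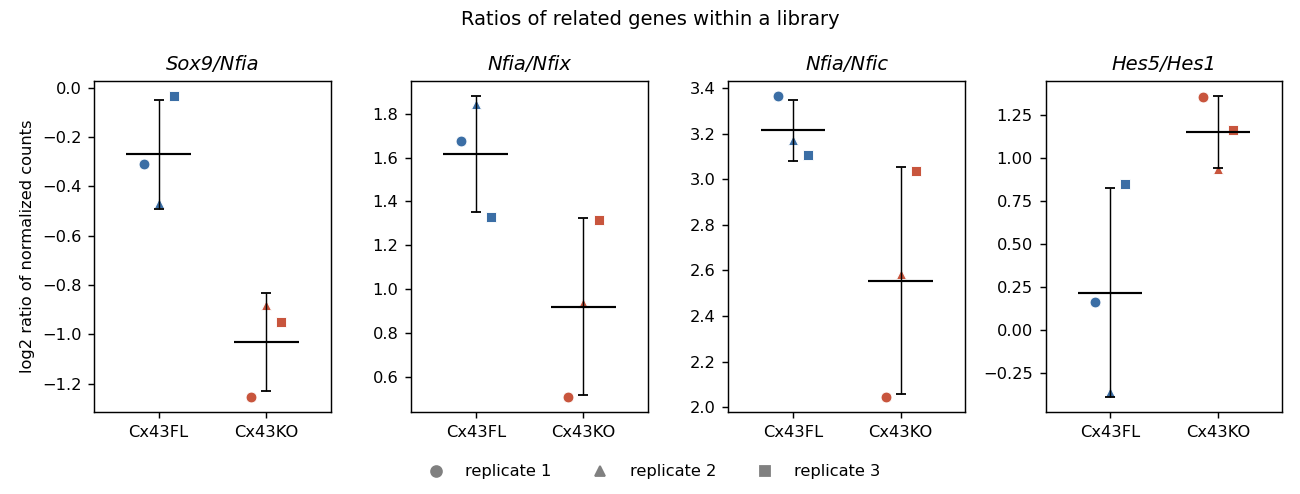
Log2 ratio of the normalized counts of 2 genes in the same library, with 1 symbol per library and replicate, black lines for group means and bars for the SD of 3 libraries. In each of the 4 panels the Cx43KO libraries lie to 1 side of the Cx43FL libraries, with mean differences of -0.76, -0.70, -0.66 and 0.94.

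Astrocyte genes described as depending on Sox9 or NFI factors gave no call. Of 10, all tested, 0 passed in either direction and 0 had an unadjusted p below 0.05 in edgeR, 4 had positive and 6 negative log2 fold changes, with a median of -0.20. Fabp7, a fatty acid binding protein of radial glia and astrocytes, had the lowest value, -0.78, and the glutamate transporter gene Slc1a2 the highest, 0.40. Zcchc24, named after its values were seen, was the 1 gene of this list lower in every Cx43KO library, as were 7.45% of all genes, with a log2 fold change of -0.44 (adjusted p = 0.635, edgeR). Of these 10 genes, 5 are also in the list of astrocyte markers.

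Among 18 other astroglial transcription factor genes 0 passed the test in edgeR, 1 (Dbx2) had an unadjusted p below 0.05 with a lower level, as had 2.67% of all genes, 12 had negative log2 fold changes and the median was -0.13. The extremes were Emx2 at -0.87 and Gli1 at 1.61. Npas3, Dbx2 and Hopx, named after their values were seen, were lower in every Cx43KO library, as were 7.45% of all genes, and Hopx, a cofactor of radial glia and astrocytes, was at 907, 1079 and 836 CPM in Cx43FL and 406, 693 and 834 in Cx43KO.

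In the lists of factors of other cell types 0 genes passed in edgeR, and 0 had an unadjusted p below 0.05. DESeq2 called 0 genes in any of these lists of regulators and targets. The extremes were Emx1 at -1.96 and Neurod1 at 1.21 among the neuronal factors, Olig2 at -0.78 and Myrf at 0.51 in the oligodendrocyte lineage, Runx1 at -1.93 and Ikzf1 at 0.56 in microglia, and Sox7 at -1.26 and Fli1 at 0.91 in endothelium. These are log2 fold changes, and most of these genes were read at low counts.

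No single transcript of a factor passed the test either. The files held 69 transcripts of the 10 genes, 68 of which passed the filter among 49127 transcripts in all. Called higher were 1 of the 49127 (0.00204%) and 0 of the 68, and the lowest adjusted p of a member transcript was 0.716 (edgeR). Without adjustment, p was below 0.05 in edgeR for 5 of the 68: Sox2-201, Nfix-201, Nfix-202, Nfix-203 and Nfix-205. The share of all transcripts under that threshold is not given here. Reads shared by the Nfix transcripts were counted for each, so these are not separate results. The shorter coding transcript Nfix-202 of 1728 bases held 61.9%, 63.5% and 66.8% as many counts as Nfix-204 in Cx43FL and 82.0%, 65.0% and 66.7% in Cx43KO.

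Genes with levels most like the mean of the 10 factors over the 6 libraries were sought among 9785 genes with a mean of at least 10 CPM. The 5 nearest were Ncbp2, Patz1, Lsm10, Gabpa and Tmem185a, with root mean square differences of 0.05 to 0.08 on the centred log2 scale. The nearest factor itself was Nfia at 0.22, and the farthest were Nfix at 0.61 and Hes5 at 0.56. Ncbp2, for example, was at 229, 184 and 219 CPM in Cx43FL and 107, 166 and 201 in Cx43KO.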

How the data were processed

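The authors filtered reads with Eoulsan, mapped them with STAR on mm10 (Ensembl 75), removed reads aligning more than once and counted with HTSeq 0.5.3. RNA had been amplified with the NuGEN Ovation kit. The deposited values are raw counts per Ensembl transcript, 1 file per library, with reads counted on every transcript they overlap. Of 75466 transcripts, 73157 were matched to GENCODE M21 (GRCm38), and the 2309 not matched held 1.60% to 1.78% of counts. The planned tests assumed counts per gene, so each gene was read from its transcript with the highest total.

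CPM were scaled with TMM factors. Genotypes (3 libraries each, from the labels) were compared with edgeR 4.0.16 (filterByExpr, quasi-likelihood test, genotype alone) in R 4.3.3, adjusted over all 13545 genes. The call also needed a mean normalized count above 50. The biological coefficient of variation was 0.600, and 3 counts correspond to 0.0864 to 0.203 CPM. Ratios were tested with exact 2-sided permutation tests. DESeq2 1.42.0, other scalings, other filters, added-up transcripts, a replicate block and leaving out each library were the alternatives. No pair of libraries agreed within sampling noise (lowest chi-square per degree of freedom 32.5).

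The 10 genes and all lists were chosen with earlier results of these data known. Named were the 10 factors, the tested gene with the highest and the lowest log2 fold change of each list of regulators and targets, any gene called, and the 5 genes with the most similar profile. Genes named outside this rule are marked as chosen after their values were seen. Markers of cell types are given for whole lists, except Ttr, Glul, Slc1a2 and Aldoc. Sequences were read from RefSeq promoter tables. Results of 1 gene of a list are not reported here.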

Additional observations from a re-analysis of the deposited data

How the results depend on the processing

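None of the 10 factors was called under any alternative run, by edgeR or DESeq2, with any library left out. The count of all genes called higher moved from 1 to 0 under astrocyte marker scaling, with at least 10 counts in every library and with transcripts added up, to 2 with the replicate block, to 113 and 147 in DESeq2 with and without its prior, and to between 0 and 11 with a library left out, the 11 being without Cx43KO replicate 1. Genes called lower moved from 0 to 17 and 27 in DESeq2. The cause was not tested.

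Directions held for 8 factors. That of Nfia (0.01) turned to -0.045 with upper-quartile factors, -0.0069 with at least 10 counts in every library, -0.048 with the replicate block, -0.16 without Cx43FL replicate 2 and -0.37 without Cx43KO replicate 3 (range with a library left out -0.37 to 0.23). That of Zbtb20 (-0.06) turned to 0.44 under astrocyte marker scaling, 0.11 with transcripts added up and 0.086 without Cx43KO replicate 3 (range -0.22 to 0.086). The ratio of Nfia to Nfib turned from -0.28 to 0.052 without Cx43KO replicate 1 (range -0.61 to 0.052). With a library left out, log2 fold changes ranged from -1.55 to -0.68 for Sox2, from -1.49 to -0.55 for Hes5, from -1.16 to -0.45 for Sox9, from -1.09 to -0.40 for Lhx2, from -0.88 to -0.04 for Id3 and from 0.34 to 0.82 for Nfix.

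Counts of factors whose libraries do not overlap were recomputed after seeing the data. The share of all genes tested is given beside each count. Factors above every Cx43FL library moved from 2 (8.08%) to 1 with upper-quartile factors (Nfib, 6.93%) and with astrocyte marker scaling (Nfix, 8.58%). Their count stayed at 2 with each library left out (10.5% to 16%). Factors below moved from 1 (7.45%) to 2 with DESeq2 size factors (7.59%). They moved to 3 with astrocyte marker scaling (3.25%) or transcripts added up (7.18%). They ranged from 1 to 5 with a library left out. The count was 2 without Cx43FL replicate 1 (10.3%), Cx43FL replicate 3 (12%) or Cx43KO replicate 1 (12.3%). It was 4 without Cx43FL replicate 2 (12.3%), 5 without Cx43KO replicate 3 (15.8%) and 1 without Cx43KO replicate 2 (13.1%). Leaving out a library lowers the bar for no overlap, so the shares over all genes rose as well. No result about the 10 factors is drawn from these counts.

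The replicate numbers did not pair the libraries: deviations from the group means correlated at 0.01, -0.00402 and -0.05 for numbers 1 to 3. The replicate block called 0 of the 10 factors and gave Sox2 a log2 fold change of -1.16 and Hes5 -1.19. With 3 libraries per genotype the permutation test cannot go below 0.1.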

Other observations

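Among the 3 Cx43FL libraries, 8 of the 10 factors had their lowest level in replicate 2 and the other two, Lhx2 (1152 CPM) and Id3 (504 CPM), their highest, while 41.0% of all tested genes were lowest and 38.6% highest there. The same library held 450 CPM of Ttr, the transthyretin gene of choroid plexus, against 9593 and 14872 in Cx43FL replicates 1 and 3 and 21438 to 32150 in Cx43KO; Ttr was named after its values were seen. The part of choroid plexus RNA in the levels of the factors was not tested.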
